A study of Rattus norvegicus with 6 samples.

Results

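MicroRNA precursor probes of a rat lncRNA array were described in denervated and normal hippocampi. Their probe names carry a rat RefSeq non-coding transcript that the rat gene table names as a microRNA gene, a symbol that begins with Mir. Of 6716 probes on the array, 381 carried such a RefSeq transcript, 292 of these were microRNA genes, and 288 are described here. The probes of Mir195, Mir301b, Mir410 and Mir3545 were left out of the set.

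Total RNA of Sprague-Dawley rat hippocampi was labelled with Cy5 alone and hybridized to lncDETECT arrays. The denervated group held 3 hippocampi taken on day 7 after transection of the fimbria-fornix (FF), the main tract between septum and hippocampus. The normal group held 3 untreated hippocampi, labelled as controls. The methods speak of paired rats of both sexes, but which samples came from the same rat or sex is not given in the sources used here, so p-values measure the spread between these samples. Age is given only as adult. The methods give chloral hydrate as the anesthetic for the transection, and no transgene or further agent is given for either group.

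A microRNA gene is first transcribed as a long primary transcript, which the nuclear enzyme Drosha cuts to a hairpin precursor. Dicer then cuts the hairpin in the cytoplasm, and 1 strand of the duplex guides Argonaute to target mRNAs. Pairing of the seed, bases 2 to 8 from the 5′ end of the mature microRNA, largely sets which targets are bound, so microRNAs with an equal seed form a family. Many microRNA genes lie in runs that are transcribed together, and others lie within the introns of a host gene. In the hippocampus miR-124 and miR-9 are known for neuronal differentiation, miR-132 and miR-134 for dendrites and synapses, and miR-29 for the maturing brain and for glia. The array did not measure mature microRNAs. The total RNA was amplified with a kit that copies from poly(A) tails, and each probe is assigned to the precursor transcript, so a value may come from any RNA that holds the probed stretch. The probed strand is not given in the sources used here.

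Some of the 7 seed families with 3 or more precursors on the array are shown first, because the levels and differences of their members are compared below. RefSeq sequences (GRCr8) were found for 260 of the 288 hairpins, and 273 members had a mature sequence. Capitals mark the seed. In the miR-181 family the seed is shared while the bases after it differ.
miR-181a-5p: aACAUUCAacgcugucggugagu
miR-181b-5p: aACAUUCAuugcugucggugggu
miR-181c-5p: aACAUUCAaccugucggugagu
miR-181d-5p: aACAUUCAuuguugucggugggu
The miR-92 family includes miR-32 and miR-363, and the precursors Mir363 and Mir92a2 are neighbours on the X chromosome.
miR-92a-3p: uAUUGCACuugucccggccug
miR-92b-3p: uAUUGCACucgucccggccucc
miR-363-3p: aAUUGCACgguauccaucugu
miR-32-5p: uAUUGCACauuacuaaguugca
In the miR-125 family miR-351 holds the seed of both miR-125 forms.
miR-125a-5p: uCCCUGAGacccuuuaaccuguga
miR-125b-5p: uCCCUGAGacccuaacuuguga
miR-351-5p: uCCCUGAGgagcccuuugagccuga
The precursors Mir8 and Mir9 of the current gene table hold miR-7 sequences, not miR-9, and were grouped with Mir7-1 for that reason.
miR-7a-5p: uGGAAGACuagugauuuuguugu
miR-7b: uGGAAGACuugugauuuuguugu

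A second set is shown because its precursors are named in the group comparison below or lie opposite to each other. miR-29b-3p comes from Mir29b1 (GRCr8 chr4:60618342-60618364, minus strand), the member with the smallest p-value in the main test, limma.
miR-29b-3p: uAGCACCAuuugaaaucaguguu
miR-130b-3p: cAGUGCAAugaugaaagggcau
miR-132-3p: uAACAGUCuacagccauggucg
let-7d and miR-3596b are read from the same bases of chromosome 17 on opposite strands (GRCr8 chr17:16322273-16322294, plus strand, and chr17:16322275-16322294, minus strand). miR-9b is likewise cut from the strand opposite to the miR-9a hairpins.
let-7d-5p: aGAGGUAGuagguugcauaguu
miR-3596b: aACUAUGCaaccuacuaccu
miR-9a-5p: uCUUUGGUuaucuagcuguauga
miR-9b-5p: uUCGGUUAucuagcuuuau

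Values are the authors' log2 normalized intensity, on which a step of 1 is a doubling of brightness. The median of the 288 microRNA precursor probes lay between 9.78 and 9.94 in the 6 samples, and that of all probes between 10.17 and 10.19. Of the members 117 (40.6%) were brighter than the median probe, 29 (10.1%) were among the brightest 10% of all probes and 36 (12.5%) among the dimmest 10%. A value under 2 lies at the lower end of the scale, near background. In at least 1 sample 28 members (9.72%) had such a value, against 8.04% of all probes. These near-background values were unevenly spread over the samples. The number of members under 2 was 5, 5 and 17 in denervated 1, 2 and 3, and 10, 16 and 8 in normal 1, 2 and 3.

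**Figure D1:**
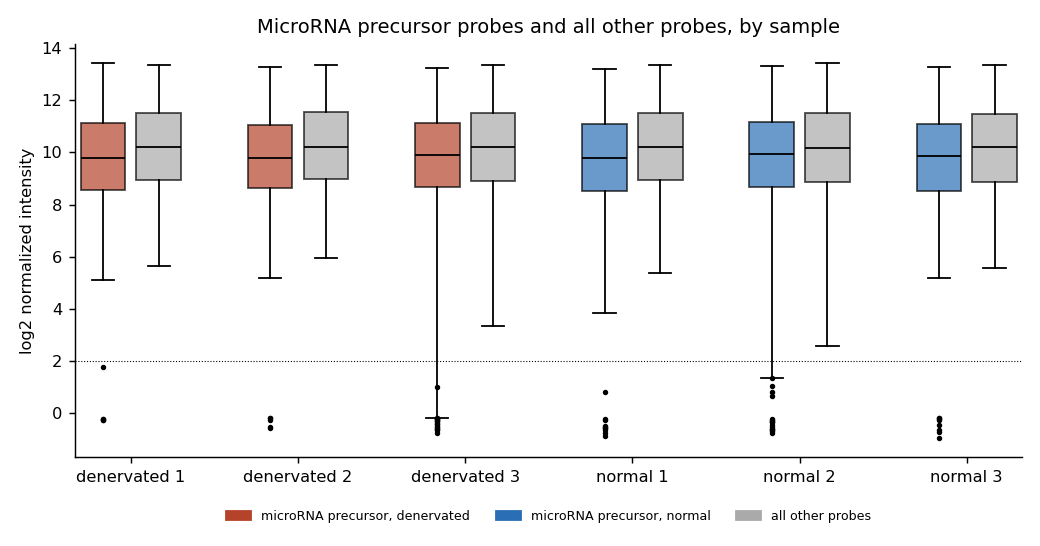
Log2 normalized intensity of the 288 microRNA precursor probes (coloured boxes) and of all other probes (grey boxes) in each sample. Boxes span the quartiles with the median as a line, whiskers reach the 5th and 95th percentiles, points are members under 2 and the dotted line is at 2. Medians of the microRNA precursor probes lie between 9.78 and 9.94, and denervated 3 and normal 2 hold the most members near background.

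The 5 brightest members were Mir935, Mir702, Mir328, Mir3594 and Mir3544, with means over 6 samples between 14.19 and 14.99. Mir935 read 15.09, 14.95 and 14.85 in the denervated and 15.07, 15.08 and 14.89 in the normal samples. Mir702 was as bright on average but less even, at 14.16, 15.22 and 15.53 against 13.94, 15.60 and 15.18. Mir328, the precursor of a microRNA studied in neurons and tumours, read 15.15, 15.48 and 14.42 against 14.02, 14.46 and 15.25. In all 3 the groups overlapped. The brightness of different probes also follows how well each probe binds, so this order is not an order of abundance.

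Spread was larger in dim probes. With the members divided into 3 groups of 96 by mean level, the median SD over 6 samples was 1.07 in the dimmest, 0.45 in the middle and 0.38 in the brightest group. All 28 members with a value under 2 were in the dimmest group, as were 29 of the 32 members with an absolute log2 difference between groups above 1. The 6 samples of 20 members lay within 0.5 of each other. Among these steady probes, Mir3573, whose hairpin lies within Efnb1, an ephrin ligand gene, read 13.93, 14.07 and 14.12 against 14.14, 14.17 and 14.07. Mir222, which is raised by growth signals in many cell types, read 10.89, 11.08 and 10.95 against 10.90, 11.24 and 11.11.

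The members with the widest range over the samples were near background in some of them. Mir92a1 had the widest range, at 9.49, 10.82 and 6.25 in the denervated and 10.42, -0.27 and 10.15 in the normal samples. Mir196a, the precursor of a microRNA that targets Hox mRNAs, read -0.24, 6.20 and 10.46 against 6.73, 9.09 and 7.82. Mir136, a gene of the imprinted Dlk1-Dio3 region, read -0.28, 9.77 and -0.37 against 9.69, 1.04 and 9.93. Each of these probes was both bright and near background within 1 group. At the other end, Mir3551 lay between -0.66 and -0.29 in every sample, and Mir137, whose microRNA acts in neuronal maturation, was under 2 in every sample.

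The question of the comparison was which precursor transcripts differed between denervated and normal hippocampus. No member passed a Benjamini-Hochberg adjusted p under 0.05 in limma, where 1 of all 6716 probes did (0.0149%). The methods called a probe at an absolute log2 difference above 1 with an unadjusted p under 0.05. With the limma p no member was higher and none was lower, while 1.04% of all probes were higher and 0.298% lower. This count follows from the choice of the members, since the 4 microRNA probes that were left out are the ones that passed with the limma p, all higher after denervation. The methods name both limma and a rank product test, and with the rank product p 13 members (4.51%) were higher and 10 (3.47%) lower, against 5.2% and 3.35% of all probes. The rank product p was one-sided, in the direction of each difference, while the limma p was two-sided, so these counts are not at an equal threshold. None of these passed the adjusted p of the rank product. One member had an unadjusted limma p under 0.05 (0.347% of members), against 1.97% of all probes. The median log2 difference, denervated minus normal, was -0.01 for the members and 0.02 for all probes, with 140 members above and 148 below 0. The count with the limma p depended on single samples. Without denervated 3, 5 members (1.74%) were higher and 7 (2.43%) lower at the thresholds of the methods, against 1.98% and 1.18% of all probes. Without normal 2, 10 members (3.47%) were higher and 2 (0.694%) lower, against 3.65% and 1.09% of all probes.

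The member with an unadjusted limma p under 0.05 was Mir29b1, the precursor of a microRNA that represses collagen and other matrix mRNAs. It read 7.39, 7.51 and 7.97 in the denervated samples and 8.48, 8.46 and 8.62 in the normal samples. All denervated values lay below all normal ones, with a gap of 0.49 between the groups. Here and below, SE is the moderated SE of limma, which draws the spread of each probe towards that of all probes. For a steady probe it can exceed the spread of the listed values. The log2 difference was -0.90 ± 0.28 (SE, n = 3 and 3), with an adjusted p of 1.00 in limma. It lay between -1.07 and -0.78 when any 1 sample was left out. The limma p was less steady. Without denervated 1, denervated 2, normal 1 or normal 3 the unadjusted p of Mir29b1 was not under 0.05. Nor was it with a block for the sample number. By the rank product the unadjusted p of Mir29b1 was not under 0.05 either. The hairpin on the opposite strand, Mir3587, read 7.01, 7.07 and 6.09 against 7.40, 7.07 and 7.02, where the groups overlapped. Fewer cells of a type and less RNA per cell cannot be told apart in such tissue samples.

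In 10 members (3.47%) every denervated value lay below every normal value, against 2.53% of all probes, and in 5 members (1.74%) every denervated value lay above, against 3.37% of all probes. The second count is also set by the choice of members, since all 4 left-out probes lay above and 9 did with them. An exact permutation test of 3 against 3 samples cannot go below a two-sided p of 0.1, which each of these 15 members reaches. None of them differed by more than 1 on the log2 scale, 10 differed by more than 0.5, and in 6 the gap between the groups was under 0.1. The RNA integrity listed by the study was higher in each denervated than in each normal sample, and its part in these differences was not tested.

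Among the members with all denervated values lower, Mir3597-3, the hairpin opposite to Mir9-3, read 9.35, 9.04 and 8.35 against 9.65, 9.86 and 9.74. Its log2 difference was -0.83 ± 0.34 (SE), with an adjusted p of 1.00 in limma. Mir423 read 9.57, 10.55 and 10.53 against 11.28, 10.59 and 10.77, so the groups were parted by 0.05 only. Mir126a, which holds miR-126b and lies opposite to the miR-126 hairpin, read 9.73, 9.28 and 9.61 against 10.13, 9.79 and 9.98. Its log2 difference was -0.43 ± 0.27 (SE). The miR-126 hairpin itself, known from endothelium, was not among the members. Mir379 and Mir431, of the imprinted region, had log2 differences of -0.35 and -0.35.

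Mir132, the precursor of a microRNA induced by neuronal activity through CREB, was bright and steady. It read 13.47, 13.31 and 13.37 in the denervated and 13.50, 13.70 and 13.49 in the normal samples. The groups did not overlap, but the gap was 0.02 and the log2 difference -0.18 ± 0.25 (moderated SE of limma). Mir212, its neighbour and partner in 1 transcript, read 12.27, 11.72 and 12.51 against 11.91, 12.66 and 12.28, with overlap. The remaining lower members were Mir336 at -0.60, Mir192 at -0.53 and Mir429 at -0.52, the last 2 belonging to gut and epithelial microRNAs.

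Of the members with all denervated values higher, Mir3596b had the widest gap, 0.37. It read 12.36, 11.99 and 11.99 against 11.55, 11.62 and 11.45, a log2 difference of 0.57 ± 0.26 (SE). Mir130b, a relative of the microRNA from Mir301b, read 10.43, 10.50 and 10.40 against 9.69, 10.04 and 9.91. Its log2 difference was 0.56 ± 0.25 (SE), with an adjusted p of 1.00 in limma. Mir361 at 0.48, Mir383 at 0.52 and Mir331 at 0.53 were the other members of this kind. After quantile normalization the values of Mir361 overlapped, and those of the other 14 members stayed apart.

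**Figure D2:**
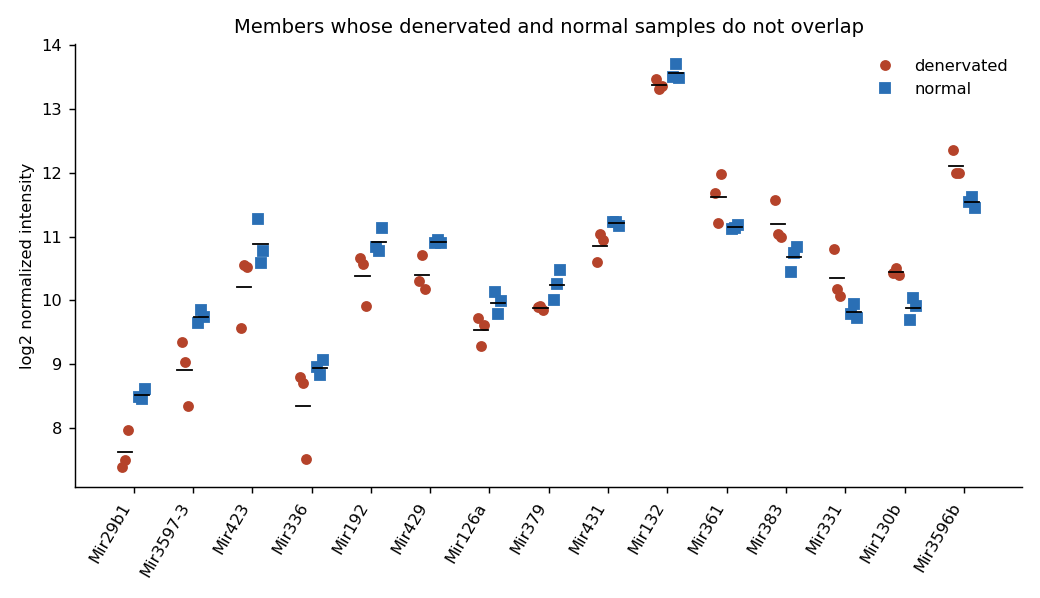
Log2 normalized intensity of the 15 members whose denervated (circles, n = 3) and normal (squares, n = 3) samples do not overlap, ordered by difference, with group means as lines. Mir29b1 at the left has a gap of 0.49 between the groups and Mir132 one of 0.02.

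Members that kept every sample at 5 or above, 253 of 288, were used to name the largest differences, since near-background values set most of the others. The lowest were Mir759 at -1.28 ± 0.72 (SE), Mir363 at -1.20 ± 0.53, Mir205 at -1.13 ± 0.73, Mir3555 at -1.04 ± 0.64, Mir495 at -1.01 ± 0.85, Mir125b2 at -0.93 ± 0.85, Mir29b1 and Mir628 at -0.88 ± 0.74. Mir363, of the miR-92 family, read 6.88, 8.77 and 7.37 against 8.99, 8.76 and 8.87. Denervated 2 was level with the normal samples, and the other denervated samples were lower. Mir205, an epithelial microRNA precursor, read 8.21, 10.32 and 9.25 against 11.05, 9.22 and 10.89.

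The highest were Mir3580 at 1.92 ± 0.96 (SE), Mir20b at 1.26 ± 0.87, Mir3562 at 1.06 ± 0.66, Mir568 at 0.95 ± 0.81, Mir184 at 0.92 ± 0.72, Mirlet7d at 0.89 ± 0.72, Mir127 at 0.85 ± 0.50 and Mir148b at 0.82 ± 0.64. Mir3580 read 8.64, 8.42 and 9.14 against 6.16, 8.98 and 5.31. Mir20b, of the proliferation-linked miR-17 family, read 8.30, 6.90 and 7.62 against 5.30, 8.21 and 5.52. In both of these normal 2 lay among the denervated samples. Without normal 2 their log2 differences were 3.0 and 2.20, past the thresholds of the methods. Mir184, known for neural stem cell proliferation in the mouse, read 8.74, 7.95 and 7.94 against 5.72, 8.16 and 7.99, where normal 1 alone was low. Of the 16 largest differences, 14 shrank by over 1.5 times when 1 sample was left out, all but those of Mir363 and Mir29b1, and 12 grew by over 1.5 times when another was. Mir495, for example, lay at -1.87 and Mirlet7d at 1.56 without denervated 3. Without denervated 1, Mir205 lay at -0.60, Mir3555 at -0.60 and Mir125b2 at -0.11, and without denervated 2, Mir759 lay at -0.64, Mir495 at -0.35 and Mirlet7d at 0.32. Without denervated 3, Mir628 lay at -0.31, Mir568 at 0.36 and Mir3562 at 0.64. Without normal 1, Mir20b lay at 0.74, Mir148b at 0.16 and Mir184 at 0.14, while Mir127 lay at 0.44 without normal 2 and Mir3580 at 1.16 without normal 3.

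By function, the list of microRNAs known for neurogenesis and neurons had 22 members, of which 9 lay above and 13 below 0, with a median log2 difference of -0.10. None passed the thresholds. Mir138-2 read 11.79, 11.25 and 12.04 against 10.61, 11.90 and 10.59, and Mir138-1 read 11.26, 11.15 and 11.20 against 11.73, 11.26 and 11.11. Both hairpins give miR-138, which limits dendritic spine size. Mir134, a local translation regulator in dendrites, read 12.13, 11.78 and 12.73 against 12.31, 12.82 and 12.34. The smallest difference was that of Mirlet7a-2, at 0.01, and the largest that of Mir9-2, at 3.10, which rested on samples at background. The median of the list lay between -0.19 and 0.05 when any 1 sample was left out.

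The list tied to proliferation, the relatives of the miR-17 to miR-92 cluster, had 8 members with 5 above and 3 below 0 and a median of 0.10, between -0.05 and 0.26 without any 1 sample. Mir92a1 had the largest difference, 2.09, through the single value of normal 2, and Mir20a the smallest, 0.03. The list of glial response had 11 members, 2 above and 9 below 0, with a median of -0.26 and a range from -0.90 to 0.66. Its median lay between -0.46 and -0.11 without any 1 sample. It holds Mir29b1, 6 precursors of the miR-181 family, Mir146a, Mir146b, Mir221 and Mir222. The same 6 miR-181 precursors are in the list for neurogenesis and neurons, so these lists are not separate. Mir146a, whose microRNA dampens innate immune signalling, read 8.32, 8.73 and 5.87 against 8.54, 8.30 and 7.09. Mir181a-1 had the smallest difference of the list, -0.02. The members of all lists were tested in the limma fit over all probes, where Mir29b1 alone had an unadjusted p under 0.05.

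Known markers of cell types were also on the array. The 6 neuron members had mean levels between 2.56 and 11.36, and 2 of them had a sample under 2. Their log2 differences lay above 0 in 3 and below 0 in 3, with a median of 0.05. That median lay between -0.13 and 0.67 without any 1 sample. Among them, Mir124-3 read 6.23, 2.86 and 4.38 against -0.22, 7.60 and 5.52. Mir122, known for liver, read 12.64, 12.15 and 12.39 against 12.51, 12.43 and 12.86. Since levels of different probes are not on 1 scale, these values neither identify the tissue nor show liver RNA. The oligodendrocyte members Mir219a1, Mir219-2 and Mir338 had log2 differences of -0.09, 0.97 and 0.03. Mir219-2 read 9.46, 9.73 and 7.06 against 9.60, 4.88 and 8.86, where normal 2 was low, and without normal 2 its difference was -0.48. Mir142, the leukocyte and microglia member, read 9.64, 9.88 and 10.66 against 9.64, 10.64 and 9.95, a log2 difference of -0.01. Groups of red cell, smooth muscle, muscle, pancreas, kidney and epithelium members had median differences between -0.52 and 1.10. The lowest was that of the 5 epithelium members, 4 of them below 0, and lay between -0.67 and -0.41 without any 1 sample. The highest was that of the pair Mir144 and Mir451a, with Mir144 near background in normal 2. Without normal 2 the median of that pair was -0.04.

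Members were then compared by seed. A seed was shared by 2 or more members for 38 seeds, and 76 members shared one. In the miR-181 family 4 of the 5 precursors with a mature sequence lay below 0, with a median of -0.26. Mir181a2 read 11.33, 11.59 and 10.53 against 11.75, 10.65 and 12.30, while Mir181d read 6.94, 8.16 and 7.90 against 5.98, 8.60 and 6.45. The 3 precursors with the miR-17 seed, Mir106a, Mir20a and Mir20b, all lay above 0, from 0.03 to 1.26. The 5 with the miR-92 seed had the highest family median, 0.36, and the widest range, from -1.20 to 2.09. The 3 miR-9b precursors had the lowest, -0.62. Single samples turned the direction of several of these medians, to -0.36 for the miR-92 seed and -0.25 for the miR-7 seed without normal 2, to 0.02 for miR-9b and 0.08 for miR-181 without denervated 3, and to -0.02 for the miR-17 seed without denervated 1. The miR-125 seed had a median of -0.25, the miR-7 seed 0.02 and the seed of Mir344-1, Mir344a-2 and Mir484 -0.10.

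Precursors that give the same mature microRNA were compared as well, with levels read as the brightness of each probe and not as amounts. Of 9 such groups of precursors, 7 had 1 precursor brighter than another in all 6 samples. The median gap over the 9 groups was 2.24. The 9 groups hold 17 precursors and are not all separate, since Mir3597-2 and Mir3597-3 are in both miR-9b groups. Mir9-3 read 8.22, 10.26 and 8.53 against 10.02, 8.31 and 10.04, while Mir9-2 read 4.64, 7.93 and -0.24 against 3.85, -0.61 and -0.22. Mir129-1 and Mir129-2 had means of 12.30 and 9.73, and Mir8 and Mir7-1, which both give miR-7a, had means of 12.22 and 9.29. For miR-138 the gap was 0.08. Group differences were of 1 sign in 6 groups and of both signs in 3.

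Runs of neighbouring microRNA genes were defined by gaps of at most 10 kb on 1 strand. There were 10 runs of 3 or more members, with 71 members. Members with no hairpin in the table were placed by their mature sequences. The lowest median was that of the X chromosome run of Mir322, Mir351, Mir450a1 and Mir542, -0.49, which was -0.15 without denervated 1 and -0.26 without normal 1. In it, Mir542 read 7.59, 9.35 and 8.03 against 9.79, 8.09 and 9.39, and Mir322, linked to muscle differentiation, read 10.25, 10.26 and 9.42 against 10.13, 8.96 and 10.44. The highest median was that of Mir291b, Mir293 and Mir294 on chromosome 1, 0.48. Without denervated 3 the median was 0.13. All 3 lay above 0, but Mir291b lay at -0.02 without normal 3, Mir293 at -1.13 without normal 1 and Mir294 at -0.87 without normal 2. These are embryonic stem cell microRNAs in the mouse. Mir293 read 7.19, 3.19 and 8.04 against 2.44, 7.87 and 6.66, so its groups overlapped widely. The run of Mir742, Mir743a, Mir743b and Mir883 followed at 0.41, with Mir743a near background in 4 samples, and was at 1.52 without normal 2. The runs of Mir201, Mir547 and Mir3585 and of the Clcn5 host gene had medians of 0.25 and 0.24. Without denervated 1 the first of these was 0.07, and without normal 2 the second was -0.23. In the Clcn5 run, Mir188 read 13.59, 11.68 and 13.62 against 11.72, 13.52 and 12.76, and Mir500 read 9.76, 10.76 and 10.16 against 10.63, 9.05 and 10.58.

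The largest assembly was the imprinted Dlk1-Dio3 region of chromosome 6, whose microRNAs are expressed from the maternal chromosome in mouse and are abundant in brain. It held 43 members, 34 on the plus strand and 9 on the minus strand. Their median log2 difference was -0.10, with 18 above and 25 below 0, and in 2 members (4.65%) the groups lay apart, against 5.9% of all probes apart in 1 direction or the other. These were Mir379 and Mir431, both lower after denervation. With the 5 members that had a sample under 5 left out the median was -0.11. The run of 23 members that holds Mir379 had a median of -0.10, the run of 10 that holds Mir127 had -0.02 and the minus-strand run of 5 had 0.03. The last was -0.83 without normal 2 and 0.51 without denervated 3. Mir127, which is antisense to the imprinted Rtl1 gene in mouse, read 8.50, 7.96 and 8.68 against 7.51, 6.70 and 8.38. Mir485, the brightest of the run of 23, read 13.33, 12.80 and 12.73 against 12.20, 13.0 and 12.54, and Mir487b read 13.15, 12.70 and 12.40 against 12.58, 12.67 and 12.47.

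**Figure D3:**
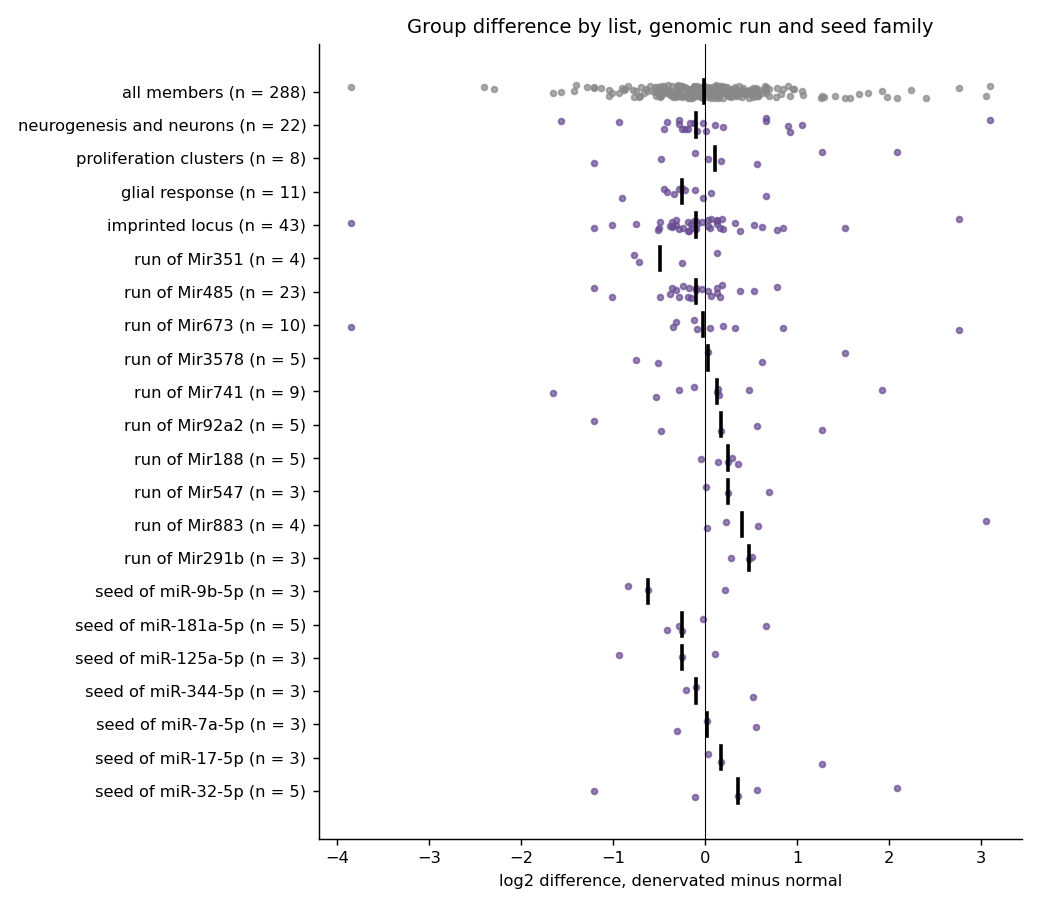
Log2 difference, denervated minus normal, of each member (points) and the median (bar) for all members, 4 lists, 10 genomic runs named by their brightest member, and 7 seed families named by a mature microRNA. Medians of runs and families lie between -0.62 and 0.48, and single members between -3.85 and 3.10.

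Hairpins on opposite strands of the same bases formed 27 pairs with both hairpins on the array. One probe was brighter than its partner in all 6 samples in 20 pairs, in 10 of them the one named second in the plot of the pairs and in 10 the one named first. In the remaining 7 pairs the order changed between samples. Probes can bind unequally, so a brighter probe is not a more abundant strand. Mir3544 read 14.28, 13.84 and 14.18 against 14.05, 14.63 and 14.18, while Mir337 on the other strand read 10.75, 11.07 and 10.85 against 10.86, 10.53 and 11.12. Mir193a exceeded Mir193 by 3.72 on average, and Mir191 exceeded Mir3555 by 2.20. The group differences of the partners had 1 sign in 13 pairs and opposite signs in 14. For Mirlet7d and Mir3596b both lay above 0, at 0.89 and 0.57, and for Mir9-3 and Mir3597-3 both lay below, at -0.45 and -0.83.

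**Figure D4:**
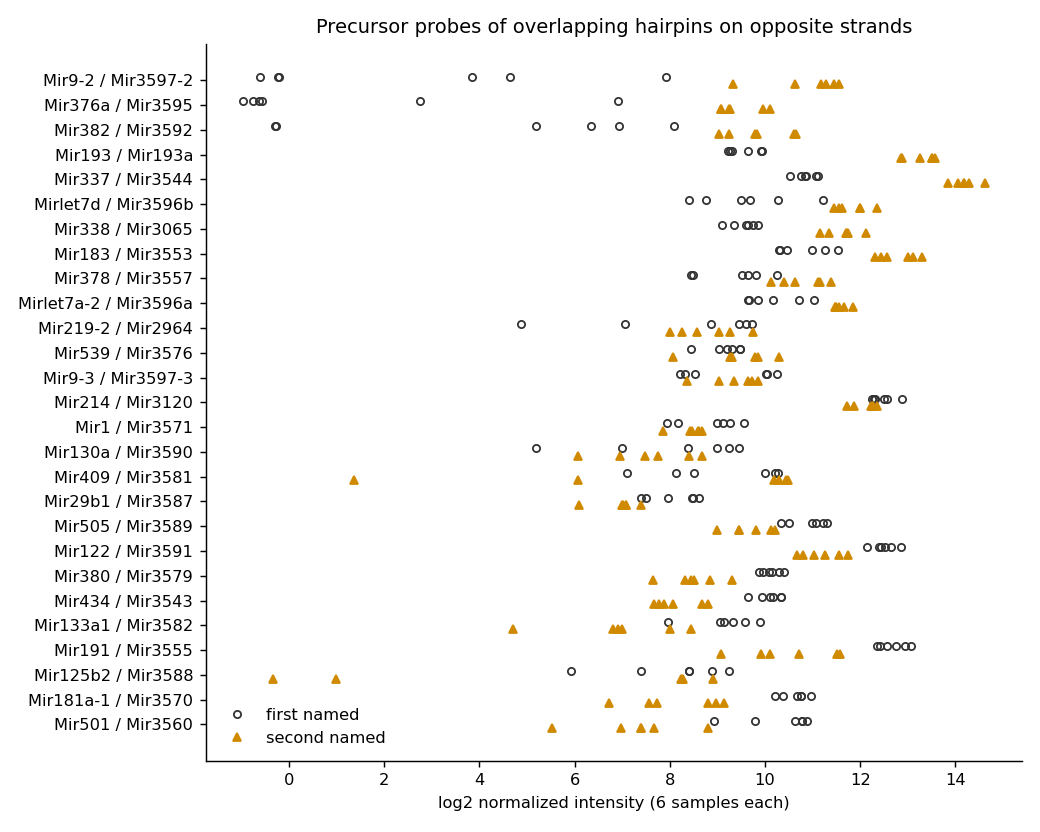
Log2 normalized intensity in all 6 samples for 27 pairs of precursor probes whose hairpins overlap on opposite strands, with open circles for the member named first and triangles for the one named second. Pairs are ordered by the mean difference, from Mir9-2 and Mir3597-2 at the top, 8.34 apart, to Mir501 and Mir3560 at the bottom.

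By position, 82 members lay within a protein-coding gene on the same strand, 51 within a lncRNA gene and 9 could not be placed, the others lying in neither. The median level was 10.05 in protein-coding hosts, 9.64 in lncRNA hosts and 9.69 outside both, and the median log2 difference 0.04, -0.11 and -0.02. Members with a GC-rich hairpin were brighter. Over the 260 members with a hairpin sequence Pearson's r was 0.41 and Spearman's rho 0.43, as a description across probes that share the same 6 arrays. The median level was 8.59, 9.63, 9.82 and 10.80 in 4 groups from the lowest to the highest GC content. A value under 2 occurred in 11 of 66 members of the lowest group and in 2 of 65 of the highest. With the group difference the GC content had an r of -0.01.

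Samples did not group by treatment over these members. Normal 1 and normal 3 had the highest Pearson correlation, 0.94, and denervated 2 correlated with normal 1 at 0.92. Denervated 3 correlated with normal 2 at 0.87, above its values with denervated 1 and denervated 2, 0.84 and 0.74. Normal 2 correlated with normal 1 at 0.68. The step from normal 1 to normal 2 and the step from denervated 2 to denervated 3 share no sample. Over the 253 members with no sample under 5 their Spearman correlation was 0.67, and that of the step from normal 1 to normal 3 with the same denervated step was 0.15. In 18 of these members both steps were above 1 and in 19 both were below -1, while in none did they oppose each other by that much. These were 7.11% and 7.51% of the 253 members. Over all probes with no sample under 5 both steps were above 1 in 6.13% and below -1 in 10.5%, and they were opposed in 0.67%. Over all 288 members, near-background values included, both were above 1 in 23, below -1 in 33 and opposed in 6 (2.08%), against 2.28% of all probes opposed.

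The members with the largest common steps were chosen after their values were seen. Mir130a read 9.0, 5.18 and 9.25 in the denervated and 6.99, 9.45 and 8.39 in the normal samples. Mir1912 read 6.53, 5.01 and 8.39 against 5.36, 8.08 and 7.37. Both were high in denervated 3 and normal 2 and low in denervated 2 and normal 1. Mir145, a microRNA precursor of smooth muscle, read 9.36, 9.94 and 7.70 against 9.45, 5.88 and 9.72, and Mir294 read 8.49, 9.84 and 8.06 against 9.74, 5.52 and 9.59. These were low in denervated 3 and normal 2. When both samples were left out, 12 members (4.17%) were higher and 6 (2.08%) lower at the thresholds of the methods, against 4.01% and 1.38% of all probes, and none passed the adjusted p in limma. Mir29b1 had a log2 difference of -1.11 in that fit, and the 15 members with separate groups had differences between -1.11 and 0.74.

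**Figure D5:**
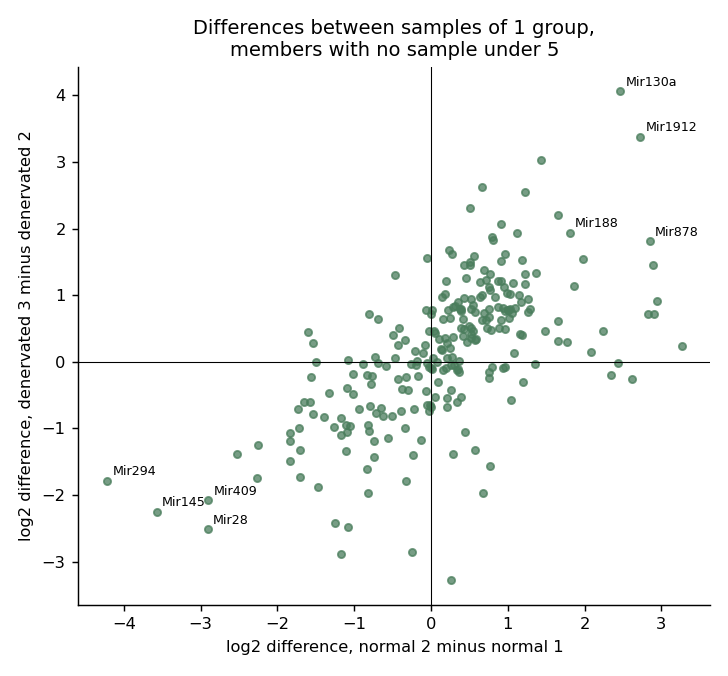
Log2 difference between normal 2 and normal 1 (horizontal) against that between denervated 3 and denervated 2 (vertical) for 253 members with no sample under 5, with the 8 members of the largest common steps named. The points rise together, with a Spearman correlation of 0.67, although the axes share no sample.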

How the data were processed

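The authors scanned the lncDETECT arrays with a GenePix 4000B, applied 50% scaling, reduced repeated spots of a probe to their median and deposited log2 normalized intensity. Background correction was not given in the sources used here. A second deposited table held the same log2 values. The authors' lists of changed probes hold a log2 ratio, a ratio and a p-value and were not used. One probe was not used.

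Values were used as deposited. The test was limma (version 3.58.1, R 4.3.3), lmFit with eBayes and no block, over 6716 probes with Benjamini-Hochberg adjustment. The number of arrays, 3 per group, limits the precision. Members and lists were chosen with earlier results of these data known. The naming rule took members past the thresholds of the methods with the limma p, and none passed. Members past them with the rank product p were not named for that. Also named were the 8 largest differences in each direction among members with no sample under 5, the 5 brightest and the widest ranges among members under 2. List members with the largest and smallest differences, and runs and families of 3 or more, were named too. Members with non-overlapping groups and the remaining examples were chosen after their values were seen. microRNA names, positions, seeds and strands come from the RefSeq GRCr8 tables. A gene with no hairpin there was placed by its mature sequences (19 members), and 9 were not placed. List members with a mature sequence had to carry one with a number of the same list, and those with none were taken by symbol. The fit was tested on simulated data.

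Alternatives tried were centring on array medians, quantile normalization, the upper 50% of probes, values under 5 set to 5, an intensity trend, a block for the sample number, the methods' t-test, the rank product that the methods name for the p, over 9 ratios with 200 permutations, the second table, counting the 4 left-out probes in, and leaving out each sample. Leaving out both denervated 3 and normal 2 was chosen after seeing the data. Python 3.11.15 with pandas 2.3.3 and matplotlib 3.10.9 was used for summaries and figures.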

Additional observations from a re-analysis of the deposited data

How the results depend on the processing

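No member passed the adjusted p in limma under any setting run, nor in the methods' t-test or the rank product. The number at an unadjusted p under 0.05 was 2 after quantile normalization, 0 with the upper 50% of probes, which holds 117 members, 4 with values under 5 set to 5, 0 with the replicate block, 4 by the methods' t-test, 23 by the rank product and 5 with the 4 left-out probes counted in. Over all probes the shares were 2.14%, 2.32%, 2.53%, 0.923%, 2.41% and 9.31% in the first 6 of these. The rank product p was one-sided, in the direction of each difference, and the p of limma and of the t-test two-sided. The rank product placed 13 members higher and 10 lower at the thresholds of the methods, where it placed 349 and 225 of all probes. With the 4 left-out probes 4 of 292 were higher, and 9 had all denervated values above the normal ones, against 1.04% and 3.37% of all probes. Of the 117 members in the upper 50% of probes, 5 had all denervated values below and 4 had all above. The shares over all probes of that setting were not computed, so these counts have no comparison. Without 1 sample each, 0 to 10 members were higher and 0 to 7 lower at the thresholds, 1 to 15 had an unadjusted p under 0.05, and the median log2 difference lay between -0.094 (without normal replicate 1) and 0.060 (without denervated replicate 2). Without denervated replicate 3 and normal replicate 2 together these counts were 12, 6 and 22. Over all probes, 39 to 245 were higher, 6 to 90 lower and 63 to 398 at the unadjusted p without 1 sample, and 269, 93 and 455 without both. The causes of these shifts were not tested. The 16 named largest differences kept their sign in every setting run on them, except that of Mir628, which was 0.15 without both of these samples.

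Whether samples of equal number came from the same rat could not be settled from the values. Their deviations from the group means correlated at -0.05, -0.52 and -0.35 over all probes, and no denervated sample was most like the normal sample of its number. Deviations from a mean of 3 samples sum to 0, and denervated 3 and normal 2 shared a pattern, so these values cannot exclude a pairing. With the replicate block no member passed either p, and the median difference was -0.01.

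Values near background limit 35 members with a sample under 5, and 3 arrays per group limit all of them.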
